A study of Mus musculus with 12 samples.

Results

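Deletion of Stat3 in mouse liver was examined in animals that carried an intact Mdr2 gene. The comparison set 3 arrays titled Stat3Δhc against 3 arrays titled Stat3Fl/Fl, which are 6 of the 12 arrays of the study, and the arrays were chosen by title alone. Stat3Fl/Fl mice carry loxP-flanked (floxed) Stat3 alleles and served as controls. In Stat3Δhc mice the floxed gene is deleted, and the superscript stands for deletion in hepatocytes in common usage, although the Cre driver is not given in the sources used here. All animals were 2 weeks old, before weaning, and total RNA came from whole liver, so that RNA of cells outside the deletion was measured as well. The other 6 arrays carried the same Stat3 genotypes on a knockout of Mdr2 (Abcb4), a model of sclerosing cholangitis. The study was designed around the double mutant, and the comparison described here gives the effect of the Stat3 genotype when the cholestatic lesion is absent.

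STAT3 is a transcription factor that is phosphorylated by Janus kinases when interleukin 6 and its relatives bind receptors that share the gp130 subunit. In hepatocytes it is best known for turning on the acute phase plasma proteins and its own inhibitor Socs3. Growth hormone signals mainly through the related STAT5 proteins, which drive Igf1, Igfals and Socs2. The liver of a suckling mouse is still maturing: fetal genes are being shut off, hepatocytes are still dividing, and enzymes of nitrogen, drug and bile acid metabolism are being switched on.

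Values are log2 RMA signals, in which a step of 1 is a doubling, and they are given for arrays A, B and C in that order. The labels do not say whether each array is a separate animal, so a p-value here measures only the spread between arrays. That spread was estimated within the groups over all 12 arrays of the study, those on the Mdr2 knockout included. Hepatocyte markers were high in each of the 6 arrays, with a mean of 12.27 to 12.47 over 19 genes, so the liver label held against its markers. Y-linked transcripts were present in each of the 6 (Eif2s3y 8.742 to 9.045) and Xist was low (3.777 to 4.687), so that the 6 arrays shared a male pattern. Transcripts of exocrine pancreas varied widely inside both groups, with a mean over 19 genes of 5.761, 7.672 and 9.433 in Stat3Δhc and 5.677, 8.476 and 7.153 in Stat3Fl/Fl. Skeletal muscle transcripts lay between 7.947 and 8.5 over 33 genes. No gene of the pancreas or muscle list passed the test (0 of 19 and 0 of 33, limma), with 1 and 0 at an unadjusted p under 0.05.

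Stat3 itself was lower in each deleted array. It read 7.71, 7.73 and 7.69 in Stat3Δhc and 9.19, 9.32 and 9.19 in Stat3Fl/Fl, a clean separation with little spread in either group. That is a 2.88-fold fall (log2 change -1.52, SE 0.10, limma adjusted p = 1.08e-05), and the signal that remained was well above the lower quartile of these arrays (4.596 to 4.655). Abcb4, the canalicular phospholipid carrier that the rest of the study removes, read 10.14, 9.999 and 10.28 in Stat3Δhc and 10.15, 10.08 and 10.08 in Stat3Fl/Fl, and the groups overlapped (log2 change 0.03, SE 0.14, adjusted p = 0.936).

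Of 13977 genes tested, 361 passed an adjusted p of 0.05 (2.58 percent of the genes tested). The 211 genes that rose make up 1.51 percent and the 150 that fell 1.07 percent. These shares are the background for each later count of list members that rose or fell. The changes of at least 2-fold comprised 25 rises and 34 falls. At an unadjusted p under 0.05 there were 2286 genes. The 3 deleted arrays lay wholly above or below the 3 floxed arrays in 25.1 percent of all genes tested (14.3 percent above and 10.8 percent below), which is the background for each statement on overlap that follows. Over all genes the median log2 change was -0.0059, and 48.46 percent of the changes were positive.

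**Figure D1:**
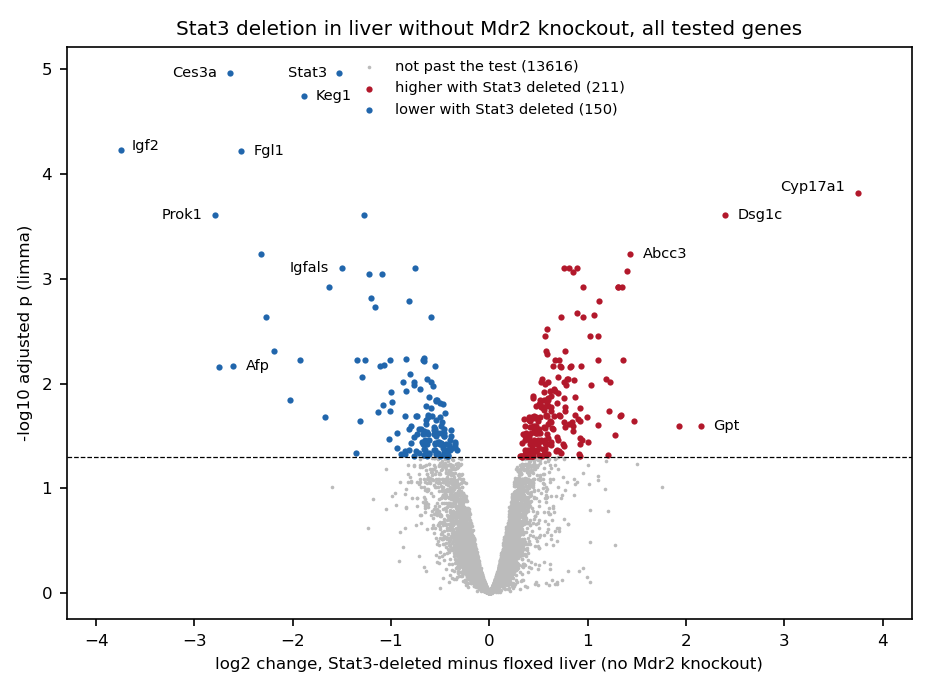
Each point is 1 of 13977 tested genes; the x axis is the log2 change (Stat3Δhc minus Stat3Fl/Fl, 3 arrays each) and the y axis is -log10 of the limma adjusted p, with a dashed line at 0.05. The 211 red points were higher and the 150 blue points lower with Stat3 deleted; Igf2 lies farthest to the left and Cyp17a1 farthest to the right.

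Over all genes no floxed array stood far from its group: the median distance of an array from the mean of the other 2 was 0.106, 0.099 and 0.1 in floxed A, B and C and 0.0744, 0.119 and 0.131 in deleted A, B and C. Among the called genes, array A of the floxed group lay toward the deleted arrays. In these 361 genes, floxed A was the floxed array nearest to the deleted ones in 293 (81.16 percent), floxed B in 41 and floxed C in 27. Over all 13977 genes the share of floxed A was 46.01 percent. The deleted arrays had no such member, with 119, 102 and 140 genes in which A, B or C lay nearest to the floxed arrays. Without floxed A, 753 genes were called (412 rose, 341 fell), of which 338 were among the 361. Without deleted A, B or C the count was 103, 131 and 134, and without floxed B or C it was 76 and 69. The calls of 62 genes (29 rose, 33 fell) held whichever of the 6 arrays was left out, and a call that did so is described below as stable.

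The falls with the largest fold were led by Igf2, an imprinted growth factor of fetal liver. Igf2 read 8.26, 7.96 and 8.79 in Stat3Δhc and 11.58, 12.32 and 12.35 in Stat3Fl/Fl, with a gap of more than 2 log2 units between the groups. It fell 13.4-fold (log2 change -3.75, SE 0.30, adjusted p = 5.87e-05). Prok1, which encodes a secreted prokineticin, read 5.87, 6.09 and 5.77 against 7.91, 9.30 and 8.89 and fell 6.91-fold (-2.79, SE 0.27, adjusted p = 0.000248). Ces3a, a carboxylesterase gene of hepatocyte lipid droplets, read 7.76, 7.64 and 7.97 against 10.75, 10 and 10.54 and fell 6.24-fold (-2.64, SE 0.17, adjusted p = 1.08e-05). In Ces3a, unlike most falls, floxed A was the highest of the floxed arrays.

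Afp, the albumin relative of fetal serum, read 8.75, 7.85 and 8.92 in Stat3Δhc and 10.02, 11.89 and 11.43 in Stat3Fl/Fl. It fell 6.09-fold (-2.61, SE 0.41, adjusted p = 0.00686), and both groups were spread over more than 1 log2 unit. The other large and stable falls were Akr1c18 (6.72-fold), which inactivates progesterone; Fgl1 (5.74-fold), a secreted relative of fibrinogen; Clec2h (5.0-fold), a C-type lectin gene; and Fabp5 (4.83-fold), a fatty acid carrier. Socs2, Gbp11, Keg1 and the organic ion transporter gene Slc22a26 fell by 4.58-, 3.80-, 3.71- and 3.10-fold. Their adjusted p ranged from 1.81e-05 (Keg1) to 0.00688 (Akr1c18). Slc22a26 read 4.975, 4.561 and 4.943 in Stat3Δhc, under the 40th percentile of each array, against 6.539, 6.681 and 6.159 in Stat3Fl/Fl. It passed the filter for testing (above the 40th percentile in at least 3 of the 12 arrays) through floxed arrays alone. Its fold and p-value are therefore not separate support for a fall. Inhbb, which encodes an activin subunit, fell 3.19-fold (adjusted p = 0.0207). It was called only with all 6 arrays or without floxed A, its adjusted p otherwise being 0.0579 to 0.116. In a fit of the 6 arrays alone it was not called.

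The largest rise was that of Cyp17a1, the hydroxylase and lyase of androgen synthesis. It read 9.57, 10.32 and 10.36 in Stat3Δhc and 7.12, 5.61 and 6.27 in Stat3Fl/Fl. It rose 13.4-fold (log2 change 3.75, SE 0.34, adjusted p = 0.000151), and the nearest arrays of the groups were still more than 2 log2 units apart. Dsg1c, a desmosomal cadherin gene, read 7.23, 7.03 and 7.01 against 4.73, 4.25 and 5.10 and rose 5.27-fold (2.40, SE 0.23, adjusted p = 0.000248). Hamp2, a paralogue of hepcidin, read 7.98, 7.91 and 7.499 against 6.44, 6.25 and 6.49 and rose 2.65-fold (1.41, SE 0.16, adjusted p = 0.000846). Abcc3, the basolateral exporter of conjugated bile acids and bilirubin, read 9.38, 9.52 and 9.02 against 7.84, 7.82 and 7.97 and rose 2.70-fold (1.43, SE 0.15, adjusted p = 0.000576). In these 4 genes each floxed array was low, floxed A included, and the calls were stable.

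Slc16a10, an aromatic amino acid carrier, rose 2.47-fold with a stable call (adjusted p = 0.00119). Several of the other large rises leaned on 2 floxed arrays. Gpt, the alanine aminotransferase, read 11.01, 11.03 and 11.06 in Stat3Δhc and 10.39, 8.13 and 8.13 in Stat3Fl/Fl, and Prodh, which opens proline breakdown, read 9.69, 9.94 and 9.80 against 9.26, 7.09 and 7.31. In both genes floxed A lay less than 1 log2 unit under the deleted arrays, while floxed B and C lay far below. Gpt rose 4.45-fold (2.15, SE 0.45, adjusted p = 0.0257) and Prodh 3.80-fold (1.93, SE 0.40, adjusted p = 0.0253). Without deleted A, B or C, or floxed B or C, the adjusted p was 0.076 to 0.146 for Gpt and 0.075 to 0.146 for Prodh, and neither was called in a fit of the 6 arrays alone. Nnmt, the nicotinamide methyltransferase, rose 2.53-fold (1.34, SE 0.26, adjusted p = 0.0198) and was not called without deleted A or C or floxed B or C (0.0578 to 0.115).

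**Figure D2:**
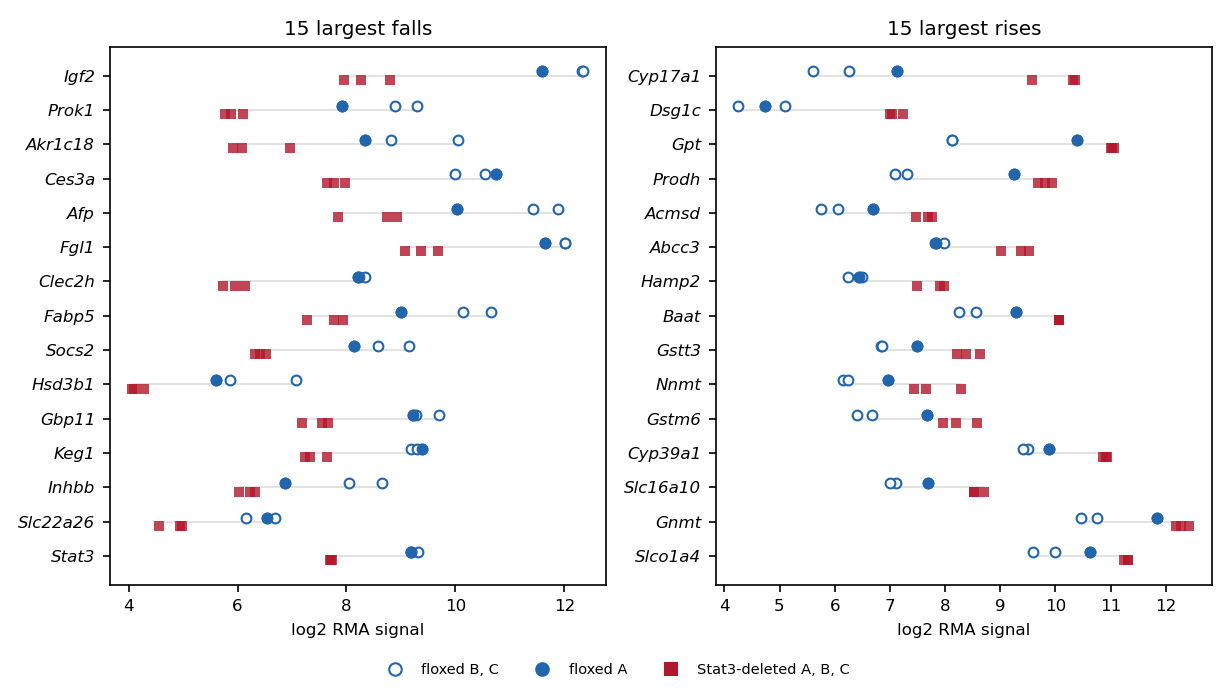
The log2 RMA signal (x axis) of the 15 largest falls (left) and rises (right) is shown for each array: red squares are Stat3Δhc A, B and C, open circles are floxed B and C, and the filled circle is floxed A. Genes were chosen so that squares and circles do not overlap; the filled circle of Gpt (10.39) and of Prodh (9.26) lies close to the squares, and that of Ces3a (10.75) lies away from them.

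STAT3 binds a palindrome of the form TTCNNNGAA, and the 250 bases before each RefSeq start (GRCm38.p6) were searched for it. The motif reads the same on both strands, so a single search covers both, and the STAT5 proteins recognise the same letters. Of the 150 genes that fell, 122 had a window and 18 of these held the motif (14.75 percent). Of the 211 that rose, 166 had a window and 12 held it (7.229 percent). Among all genes tested it was found in 783 of 11081 (7.066 percent). Among the 15 largest falls, 10 had a window and 4 held the motif (Hsd3b1, Keg1, Prok1 and Slc22a26). Of these, Hsd3b1 and Slc22a26 passed the filter for testing through floxed arrays alone. Among the 15 largest rises, 8 had a window and 3 held it (Gstm6, Hamp2 and Prodh). A match is a description of these letters and not of a bound site, and several of the leading genes (Fgl1, Socs2, Ces3a and Cyp17a1 among them) had no window in the table used.

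The windows below are those of Apcs, an acute phase gene that fell; of Prok1 and Keg1, which fell and hold 2 matches each; and of Socs3, a classical STAT3 target that did not pass the test. They were chosen after the values were seen. Prok1 has a second window, farther upstream at chr3:107239708-107239957, which holds 0 matches and is not shown. Each runs 5′ to 3′ in the direction of the gene, ends at the base before the RefSeq start, and has the motif in capitals. They lie at chr1:172895055-172895304 (minus strand, Apcs), chr3:107238653-107238902 (minus strand, Prok1), chr19:12695540-12695789 (plus strand, Keg1) and chr11:117969367-117969616 (minus strand, Socs3).
Apcs: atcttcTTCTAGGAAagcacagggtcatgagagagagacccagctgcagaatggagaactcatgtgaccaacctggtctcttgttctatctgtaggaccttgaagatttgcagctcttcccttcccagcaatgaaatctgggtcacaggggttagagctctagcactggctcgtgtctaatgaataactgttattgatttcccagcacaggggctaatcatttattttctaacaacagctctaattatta
Prok1: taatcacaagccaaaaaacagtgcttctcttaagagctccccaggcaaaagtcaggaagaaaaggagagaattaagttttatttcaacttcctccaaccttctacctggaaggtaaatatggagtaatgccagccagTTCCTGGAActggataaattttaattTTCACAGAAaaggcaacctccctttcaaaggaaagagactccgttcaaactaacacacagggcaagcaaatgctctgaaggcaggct
Keg1: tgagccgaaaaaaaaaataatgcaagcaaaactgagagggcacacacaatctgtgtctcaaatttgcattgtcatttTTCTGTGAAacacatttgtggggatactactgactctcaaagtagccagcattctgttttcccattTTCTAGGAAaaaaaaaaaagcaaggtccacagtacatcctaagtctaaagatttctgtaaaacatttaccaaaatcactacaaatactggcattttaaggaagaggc
Socs3: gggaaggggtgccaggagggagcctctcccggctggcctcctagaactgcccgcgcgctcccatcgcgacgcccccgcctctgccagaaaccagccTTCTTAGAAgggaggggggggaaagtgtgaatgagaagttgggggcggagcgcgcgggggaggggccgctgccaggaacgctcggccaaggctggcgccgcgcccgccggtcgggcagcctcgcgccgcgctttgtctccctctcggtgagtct
The matches begin 244 bases before the start in Apcs, 113 and 87 in Prok1, 173 and 107 in Keg1, and 154 in Socs3. Apcs and Keg1 share the same 9 letters, TTCTAGGAA. Igfals, which fell, held a match in each of 2 windows (TTCTCAGAA and TTCCTAGAA) and 0 in a further window at chr17:24878497-24878746. No match was found in the windows of Igf1, Igf2 and Afp.

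Upstream of STAT3, none of 16 tested receptors, kinases and inhibitors of interleukin 6 signalling passed the test (limma; 2 had an unadjusted p under 0.05), and their median log2 change was -0.02. Il6ra, the interleukin 6 receptor, read 9.21, 9.27 and 8.86 in Stat3Δhc and 8.88, 8.66 and 8.44 in Stat3Fl/Fl (log2 change 0.45, SE 0.17, adjusted p = 0.195), and Il6st, the shared gp130 subunit, read 10.08, 10.11 and 10.03 against 10.03, 10.11 and 10.09. Lifr, the receptor for leukaemia inhibitory factor, read 10.09, 9.99 and 10.08 against 10.59, 10.34 and 10.33, with the deleted arrays below (-0.37, SE 0.11, adjusted p = 0.0894). The feedback inhibitor Socs3 read 6.70, 7.01 and 6.69 against 7.10, 6.95 and 6.94, and the groups overlapped (-0.20, SE 0.17, adjusted p = 0.618). Among 5 tested STAT genes the call was confined to Stat3. Stat5a, Stat5b, Stat2 and Stat6 had log2 changes between -0.04 and 0.11.

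Acute phase genes were mostly lower in the deleted liver, though most did not pass the test. Of 23 tested, 4 fell and 0 rose (17.39 percent called, against 2.58 percent of all genes tested). Their median log2 change was -0.29, and in 17 of the 23 the deleted arrays lay wholly below the floxed ones. Apcs, serum amyloid P, a major acute phase protein of the mouse, read 9.65, 9.89 and 9.74 in Stat3Δhc and 10.55, 10.90 and 10.86 in Stat3Fl/Fl. It fell 2.02-fold (-1.01, SE 0.16, adjusted p = 0.00594). Fgl1, which interleukin 6 induces in hepatocytes, read 9.37, 9.07 and 9.68 against 11.65, 12.01 and 12.02 (-2.52, SE 0.21, adjusted p = 5.97e-05), and both calls were stable. Crp, C-reactive protein, and Itih3, a hyaluronan-binding inhibitor, fell by 0.47 (adjusted p = 0.0157) and 0.41 (adjusted p = 0.0382) on the log2 scale. The Crp call was lost without deleted A or B or floxed B or C (adjusted p 0.0518 to 0.0844), and that of Itih3 without any array except floxed A (0.0721 to 0.191).

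Several other members of the list did not pass the test. Saa2, a serum amyloid A gene, read 3.80, 3.58 and 4.35 in Stat3Δhc and 5.42, 5.22 and 5.89 in Stat3Fl/Fl (adjusted p = 0.097). Its signal was low, under the lower quartile in each deleted array. Of the 6 arrays only floxed C lay above its 40th percentile, so Saa2 was tested by way of the arrays on the Mdr2 knockout. Lcn2, lipocalin 2, read 7.71, 7.88 and 8.25 against 8.36, 8.98 and 9.35 (-0.95, SE 0.32, adjusted p = 0.144). A2m, the broad protease inhibitor, read 5.99, 5.94 and 6.11 against 7.01, 6.82 and 6.78 (-0.86, SE 0.35, adjusted p = 0.239). In each of these the deleted arrays were the lower, but the difference did not pass the test. Hp, haptoglobin, was abundant and overlapped between the groups (12.78, 12.81 and 12.76 against 12.69, 12.94 and 12.99).

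Plasma proteins of complement and clotting included 4 falls. C8a, a subunit of the membrane attack complex, read 9.21, 9.16 and 9.55 in Stat3Δhc and 10.47, 10.31 and 10.41 in Stat3Fl/Fl and fell 2.13-fold (-1.09, SE 0.13, adjusted p = 0.000902). F11, clotting factor XI, read 9.33, 9.29 and 9.34 against 10.04, 10.13 and 10.08 and fell 1.69-fold (-0.76, SE 0.09, adjusted p = 0.000794). Both were tightly grouped and stable, and F11 was the single call among 22 coagulation genes, whose median was -0.02. Of 26 complement genes 3 fell, with a median of -0.24. Mbl2, a mannose-binding lectin, fell 1.51-fold (adjusted p = 0.00959; 0.0548 without deleted A and 0.0681 without floxed C). Serping1, the C1 inhibitor, fell 1.73-fold (adjusted p = 0.0253) and was called only with all arrays or without floxed A (otherwise 0.0556 to 0.127).

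Iron genes gave 1 rise and 1 fall among 24 tested. Hamp2 rose, as given above, while the iron-regulating hormone gene Hamp itself lay at low signal, between 4.04 and 4.71 in the 6 arrays, and was not tested. Slc40a1, the iron exporter ferroportin, read 10.57, 10.63 and 10.62 in Stat3Δhc and 10.93, 11.12 and 11.20 in Stat3Fl/Fl and fell 1.39-fold (-0.48, SE 0.11, adjusted p = 0.0376). That call held without floxed A only (otherwise 0.0971 to 0.195).

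Within the growth hormone axis, 3 of 16 genes fell and 0 rose, and all 3 calls were stable. Igfals, which keeps IGF1 in the circulation as part of a ternary complex, read 8.30, 8.15 and 8.37 in Stat3Δhc and 9.81, 9.79 and 9.73 in Stat3Fl/Fl. It fell 2.83-fold (-1.502, SE 0.17, adjusted p = 0.000794). Igf1, the hormone itself, read 10.51, 10.41 and 10.59 against 11.41, 11.23 and 11.33 and fell 1.76-fold (-0.82, SE 0.10, adjusted p = 0.00161). The feedback inhibitor Socs2 read 6.53, 6.32 and 6.42 against 8.13, 9.14 and 8.57 (-2.19, SE 0.33, adjusted p = 0.00492). In Igfals and Igf1 the 3 floxed arrays lay close together, floxed A included.

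Other members of the axis did not pass the test. Ghr, the growth hormone receptor, read 11.14, 11.11 and 11.17 in Stat3Δhc and 11.16, 10.88 and 11.14 in Stat3Fl/Fl (log2 change 0.08, SE 0.13, adjusted p = 0.825). Cish, another growth hormone-induced inhibitor, read 6.60, 6.79 and 6.21 against 7.65, 7.63 and 7.28 (-0.99, SE 0.31, adjusted p = 0.119), with the deleted arrays below. Igfbp3, the main carrier of IGF1, read 8.63, 8.55 and 8.59 against 8.88, 9.05 and 8.99 (-0.38, SE 0.14, adjusted p = 0.193). Igfbp3 and Cish were thus lower in each deleted array, while Ghr overlapped. The median over the 16 genes was -0.0018, with 8 positive and 8 negative log2 changes.

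Genes of fetal and perinatal growth formed another group of falls. Among 17 imprinted growth genes 4 fell and 0 rose, with a median of -0.36. Besides Igf2, Meg3, a maternally expressed non-coding RNA, read 7.55, 7.17 and 7.59 in Stat3Δhc and 8.04, 8.72 and 8.57 in Stat3Fl/Fl and fell 2.01-fold (-1.004, SE 0.18, adjusted p = 0.0121). Mest, a paternally expressed hydrolase gene, and Grb10, an inhibitor of insulin and IGF1 receptor signalling, fell by 0.69 (adjusted p = 0.0362) and 0.63 (adjusted p = 0.0289) on the log2 scale. Igf2 was the stable call of the 4. Meg3 was not called without deleted B or floxed B or C (adjusted p 0.0568 to 0.0794), Mest without deleted A or B or floxed B or C (0.115 to 0.181), and Grb10 without any array except floxed A (0.071 to 0.153).

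Peg3, a paternally expressed zinc finger gene, read 8.33, 8.18 and 8.28 in Stat3Δhc and 8.48, 9.72 and 9.45 in Stat3Fl/Fl. Floxed A lay with the deleted arrays, and the log2 change moved from -0.95 (adjusted p = 0.11) to -1.32 (adjusted p = 0.00972) without it. Cdkn1c, a cyclin-dependent kinase inhibitor, behaved alike (8.48, 8.35 and 8.63 against 8.55, 9.17 and 9.18; adjusted p = 0.105, and 0.00344 without floxed A). Dlk1, a fetal Notch relative, read 6.81, 6.89 and 6.83 against 7.07, 7.32 and 7.21 (adjusted p = 0.0784). Without floxed A the list held 8 falls, and without any other single array 1 to 3.

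Among 13 fetal liver genes Afp was the single call, and the median was -0.19. Zhx2, a repressor of Afp after birth, read 7.57, 7.58 and 7.65 in Stat3Δhc and 7.51, 7.30 and 7.29 in Stat3Fl/Fl (0.23, SE 0.12, adjusted p = 0.341). Gpc3, an oncofetal proteoglycan, overlapped between the groups (9.71, 9.59 and 9.83 against 9.33, 10.09 and 9.92). On the other side, 18 of 19 genes that rise in postnatal liver had a positive log2 change, with a median of 0.46, and 3 rose. These were Cyp2c37 (1.56-fold, adjusted p = 0.0268), Cyp3a25 (1.48-fold, adjusted p = 0.0349) and Cyp1a2 (1.48-fold, adjusted p = 0.0421), all drug-oxidising cytochromes. Without floxed A there were 7 rises, and without any other single array 0.

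Steroid enzymes were split. Of 16 tested, Cyp17a1 rose, and Hsd3b1 and Hsd17b2 fell. Hsd3b1, a dehydrogenase needed for all active steroid hormones, read 5.598, 7.08 and 5.86 in Stat3Fl/Fl, and in Stat3Δhc it lay under the lower quartile of each array (4.07, 4.10 and 4.28), so that no fold is given. Its adjusted p was 0.0143, and 0.0522 to 0.0592 without deleted A or B or floxed B. Only floxed arrays, with or without the Mdr2 knockout, lay above their 40th percentile. Hsd3b1 thus entered the test through the group in which it is high, and its p-value is not separate support for a fall. Hsd17b2, which inactivates oestradiol and testosterone, read 10.16, 10.31 and 10.36 against 10.74, 11.14 and 11.05 and fell 1.63-fold (-0.70, SE 0.12, adjusted p = 0.0113; 0.0594 to 0.0752 without deleted A or floxed B or C). The other steroid gene among the leading falls was Akr1c18, at 5.92, 6.08 and 6.96 against 8.33, 10.05 and 8.82 (adjusted p = 0.00688).

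In bile acid synthesis, 4 of 20 genes rose, 0 fell, and 19 of the 20 log2 changes were positive (median 0.26). Cyp27a1, the mitochondrial sterol hydroxylase that opens the acidic pathway, read 10.58, 10.56 and 10.25 in Stat3Δhc and 9.63, 9.15 and 9.27 in Stat3Fl/Fl and rose 2.16-fold (1.11, SE 0.14, adjusted p = 0.00162). Cyp39a1, an oxysterol hydroxylase, read 10.92, 10.86 and 10.94 against 9.88, 9.51 and 9.42 and rose 2.47-fold (1.31, SE 0.16, adjusted p = 0.00119). Baat, which joins bile acids to taurine or glycine, read 10.06, 10.06 and 10.07 against 9.29, 8.24 and 8.56 and rose 2.57-fold (1.36, SE 0.21, adjusted p = 0.00594). These 3 calls were stable, and in Baat floxed A was the highest floxed array. Slc27a5, the bile acid-CoA ligase that acts just before Baat, rose 1.57-fold (adjusted p = 0.0113; 0.0561 to 0.0794 without deleted A or floxed B or C).

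Cyp7a1, the rate-limiting enzyme of the classical pathway, did not pass the test. It read 10.84, 10.99 and 10.88 in Stat3Δhc and 10.33, 8.84 and 9.92 in Stat3Fl/Fl, with the deleted arrays above but the floxed arrays widely spread (1.21, SE 0.43, adjusted p = 0.164). Cyp8b1, the sterol hydroxylase that sets the share of cholic acid, read 9.87, 9.56 and 9.80 against 9.15, 9.05 and 9.51 (0.51, SE 0.23, adjusted p = 0.289).

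Of 19 bile acid and lipid transporters, 2 rose, and the median was 0.16. Abcc3 was one, and the other was Slco1a4, a sinusoidal organic anion carrier, which read 11.32, 11.32 and 11.24 in Stat3Δhc and 10.62, 9.60 and 9.99 in Stat3Fl/Fl (2.33-fold, 1.22, SE 0.21, adjusted p = 0.00959; 0.0645 without floxed C). The canalicular bile salt export pump Abcb11 read 11.70, 11.78 and 11.83 against 11.64, 11.56 and 11.55 (0.19, SE 0.10, adjusted p = 0.371), and the sinusoidal uptake carrier Slc10a1 overlapped between the groups (11.87, 11.89 and 11.97 against 12.02, 11.61 and 11.62). Abcc2, the canalicular relative of Abcc3, read 11.50, 11.41 and 11.37 against 11.26, 11.11 and 11.09 (0.27, SE 0.10, adjusted p = 0.168).

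The nuclear receptors gave 1 rise and 1 fall among 22. Nr1i3 (CAR), the receptor for drugs and bilirubin, read 10.54, 10.40 and 10.14 in Stat3Δhc and 9.83, 9.82 and 9.55 in Stat3Fl/Fl and rose 1.54-fold (0.63, SE 0.14, adjusted p = 0.0358; 0.103 to 0.185 without deleted A or B or floxed B or C). Esr1, the oestrogen receptor, read 8.39, 8.23 and 8.33 against 8.85, 8.69 and 8.78 and fell 1.38-fold (-0.46, SE 0.11, adjusted p = 0.0452), a call that was lost whichever of the 6 arrays was left out (0.0759 to 0.177). The bile acid receptor Nr1h4 (FXR) overlapped (9.39, 9.31 and 9.52 against 9.42, 8.95 and 9.26), and its target Nr0b2 (SHP) had a log2 change of 0.35 (SE 0.25, adjusted p = 0.563). None of 22 hepatocyte transcription factors passed the test (limma; 10 had an unadjusted p under 0.05). Their log2 changes ran from -1.18 to 1.02, with a median of 0.11. The deleted arrays lay wholly above the floxed ones in 9 and wholly below in 5, against 14.3 and 10.8 percent of all genes tested. Hnf4a, a member with little change, read 10.38, 10.39 and 10.46 against 10.36, 10.25 and 10.30.

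Glutathione transferases couple glutathione to electrophiles. Of 19 tested, 9 rose and 0 fell, the median log2 change was 0.46, and in 14 the deleted arrays lay wholly above the floxed ones. Gstm1 read 11.30, 11.37 and 11.22 in Stat3Δhc and 10.49, 10.12 and 9.97 in Stat3Fl/Fl and rose 2.15-fold (1.11, SE 0.16, adjusted p = 0.00349). Gstt3 read 8.22, 8.38 and 8.63 against 7.49, 6.83 and 6.87 and rose 2.55-fold (1.35, SE 0.17, adjusted p = 0.00119). Both calls were stable, with floxed A the nearest control array in each. Gstm7 was the other stable call of the list. Gstm6, Gstm3, Gstm2 and Gsto1 rose 2.51-, 2.05-, 1.73- and 1.55-fold, and each lost its call without floxed B (0.0577 to 0.0987) and without floxed C (0.0647 to 0.119); Gstm6 did so also without deleted A (0.0684) or C (0.0768), and Gsto1 without deleted C (0.0556). The count was 9 without floxed A, 5 to 7 without a deleted array, and 3 without floxed B or without floxed C. Genes of the Gstm cluster are similar in sequence, and whether their probes share signal was not tested.

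Among 28 members of the Cyp2 list 4 rose and 0 fell (median 0.34). Cyp2a22 read 11.97, 11.98 and 11.95 in Stat3Δhc and 11.27, 11.02 and 11.27 in Stat3Fl/Fl and rose 1.72-fold (0.78, SE 0.13, adjusted p = 0.0102; 0.0651 without floxed B), and Cyp2a12 rose 1.47-fold (adjusted p = 0.018; 0.066 to 0.104 without deleted A or C or floxed B or C). Cyp2c37 and Cyp1a2, named above, held only without floxed A (otherwise 0.075 to 0.146 and 0.0971 to 0.202). Without floxed A the list had 8 rises and 1 fall, and without any other single array 0 to 2 rises. Of 5 Cyp3a genes Cyp3a25 rose (0.0987 to 0.171 without any array except floxed A), and 0 of 8 Cyp4 genes passed the test (2 at an unadjusted p under 0.05).

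The conjugating enzymes included Sult2a3, a sulfotransferase for bile acids and steroids, at 8.51, 8.07 and 8.76 in Stat3Δhc and 7.19, 6.94 and 7.54 in Stat3Fl/Fl (2.33-fold, 1.22, SE 0.23, adjusted p = 0.0182; 0.0747 to 0.0999 without deleted A or C or floxed B). Sult1a1, a phenol sulfotransferase, and Ugdh, which makes the glucuronic acid donor, rose 1.42-fold (adjusted p = 0.0158) and 1.69-fold (adjusted p = 0.0232). Ugt2a3, a glucuronosyltransferase gene, read 8.56, 8.42 and 8.78 against 10.05, 9.19 and 9.33 and fell 1.91-fold (adjusted p = 0.0416). The call of Sult1a1 was lost without deleted A or B or floxed B or C (0.0592 to 0.0937), that of Ugdh without any array except floxed A (0.0585 to 0.123), and that of Ugt2a3 without any array (0.0583 to 0.134). In all, 3 of these 20 genes rose and 1 fell.

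Of 13 carboxylesterase genes, 2 fell and 0 rose (median 0.12). Beside Ces3a, Ces3b read 4.65, 5.18 and 4.95 in Stat3Δhc and 7.28, 5.67 and 5.90 in Stat3Fl/Fl (-1.36, SE 0.32, adjusted p = 0.0459). Floxed A was by far the highest array. The log2 change without it was -0.86 (adjusted p = 0.0199), and the call was lost without deleted A, B or C or floxed C (0.0873 to 0.156). Osgin1, an oxidative stress-induced growth inhibitor, read 8.74, 8.26 and 7.98 against 9.36, 10.16 and 9.48 and fell 2.53-fold (-1.34, SE 0.21, adjusted p = 0.00594, stable). It was the single call among 18 NRF2 targets, whose median was 0.07.

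Enzymes of amino acid breakdown and the urea cycle were higher as a group. Of 34 tested, 14 rose and 0 fell, each of the 34 log2 changes was positive, and the median was 0.44. The mean over the 34 genes was 11.36, 11.37 and 11.37 in Stat3Δhc and 11.09, 10.55 and 10.73 in Stat3Fl/Fl. The deleted arrays were nearly level, and floxed A lay nearest to them. Without floxed A 25 of the 34 rose, and without any other single array 1 to 3 did.

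Gldc, the decarboxylase of the glycine cleavage system, gave the stable call of the list. It read 10.76, 10.85 and 10.91 in Stat3Δhc and 10.25, 9.92 and 10.23 in Stat3Fl/Fl and rose 1.64-fold (0.71, SE 0.11, adjusted p = 0.00594). Oat, which converts ornithine to glutamate semialdehyde, read 11.27, 10.92 and 10.88 against 10.04, 9.58 and 9.89 and rose 2.28-fold (1.19, SE 0.20, adjusted p = 0.00899; 0.0573 without floxed B). Arg1, the arginase that releases urea, read 12.39, 12.44 and 12.29 against 11.94, 11.14 and 11.31 and rose 1.87-fold (0.91, SE 0.18, adjusted p = 0.0215). In Arg1 floxed A lay about midway between the deleted arrays and floxed B and C.

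Acmsd, which turns tryptophan catabolites away from NAD synthesis, rose 2.77-fold (adjusted p = 0.0226), and Gnmt, the glycine methyltransferase, 2.42-fold (adjusted p = 0.0309). Hal, histidine ammonia-lyase, rose 1.90-fold (adjusted p = 0.0172), Asl, which splits argininosuccinate, 1.69-fold (adjusted p = 0.0393), and Cps1, the first enzyme of the urea cycle, 1.35-fold (adjusted p = 0.0495). Arg1, Acmsd, Gnmt, Asl and Cps1 were called only with all arrays or without floxed A, and their adjusted p otherwise lay between 0.0579 and 0.22. Hal also kept its call without deleted A (otherwise 0.0566 to 0.107).

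Glucose output genes had 2 rises among 22, Gpt and Slc37a4, the carrier that brings glucose phosphate to its phosphatase. Slc37a4 read 10.89, 10.98 and 11.03 in Stat3Δhc and 10.52, 9.88 and 9.90 in Stat3Fl/Fl and rose 1.82-fold (0.87, SE 0.14, adjusted p = 0.00917; 0.0577 without floxed B and 0.0646 without floxed C). Pck1, which commits oxaloacetate to glucose synthesis, overlapped (12.15, 12.23 and 11.80 against 12.15, 11.72 and 12.01), and G6pc, the phosphatase, read 11.59, 11.67 and 11.69 against 11.24, 10.35 and 11.24 (0.70, SE 0.29, adjusted p = 0.237).

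Hepatocytes divide their work along the lobule, with urea synthesis near the portal vein and glutamine synthesis and much drug oxidation around the central vein. Genes of both zones rose: 7 of 18 periportal genes (2 fell, median 0.44) and 5 of 20 pericentral genes (0 fell, median 0.29). Most of these rises were counted in lists above. Cps1, Asl, Arg1, Hal, Gldc and Oat are amino acid and urea enzymes, Cyp27a1 is of bile acid synthesis, and Cyp1a2 and Cyp2c37 are of the Cyp2 list. Without floxed A, 9 periportal and 7 pericentral genes rose, and without any other single array 2 to 3 and 1 to 3. Among the periportal genes, Slc7a2, a cationic amino acid carrier, read 10.93, 11.05 and 10.86 in Stat3Δhc and 10.21, 10.04 and 9.91 in Stat3Fl/Fl and rose 1.85-fold (0.89, SE 0.12, adjusted p = 0.00213, stable). The periportal falls were Ctsc, a lysosomal dipeptidase (1.67-fold, adjusted p = 0.0203; 0.0752 to 0.116 without deleted A or B or floxed B or C), and Cdh1, E-cadherin, whose log2 change was -0.67 with a stable call. Lgr5, a Wnt pathway receptor of pericentral hepatocytes, read 8.08, 7.80 and 8.12 against 7.42, 7.20 and 7.30 and rose 1.62-fold (0.70, SE 0.12, adjusted p = 0.0124; 0.0556 to 0.0735 without deleted A or C or floxed B or C). Neither Glul, glutamine synthetase, nor Cyp2e1 passed the test, at 0.12 (adjusted p = 0.67) and 0.08 (adjusted p = 0.71) on the log2 scale. Whether the rises differ between the zones was not tested.

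Most lipid genes did not pass the test, although 11.11 percent of the lipogenic genes were called, against 2.58 percent of all genes tested. Of 27 lipogenic genes 2 rose and 1 fell (median 0.06, and -0.10 without floxed B), of 25 genes of fatty acid oxidation 1 rose (median 0.06), and none of 22 cholesterol synthesis genes (median -0.21, 1 at an unadjusted p under 0.05) or of 21 apolipoprotein genes (median 0.004, 4 at an unadjusted p under 0.05) passed limma's test. Elovl6, which lengthens palmitate, read 7.69, 7.49 and 8.36 in Stat3Δhc and 7.21, 6.75 and 6.80 in Stat3Fl/Fl (1.90-fold, adjusted p = 0.0376). Fads2, a desaturase of polyunsaturated fatty acids, fell 1.48-fold (adjusted p = 0.0426), Acacb, the mitochondrial acetyl-CoA carboxylase, rose 1.24-fold (adjusted p = 0.0495) and Ehhadh, a peroxisomal oxidation enzyme, rose 1.38-fold (adjusted p = 0.0445). None of these 4 calls was stable: the adjusted p reached 0.177 for Elovl6, 0.179 for Fads2, 0.231 for Acacb and 0.213 for Ehhadh when 1 array was left out.

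**Figure D3:**
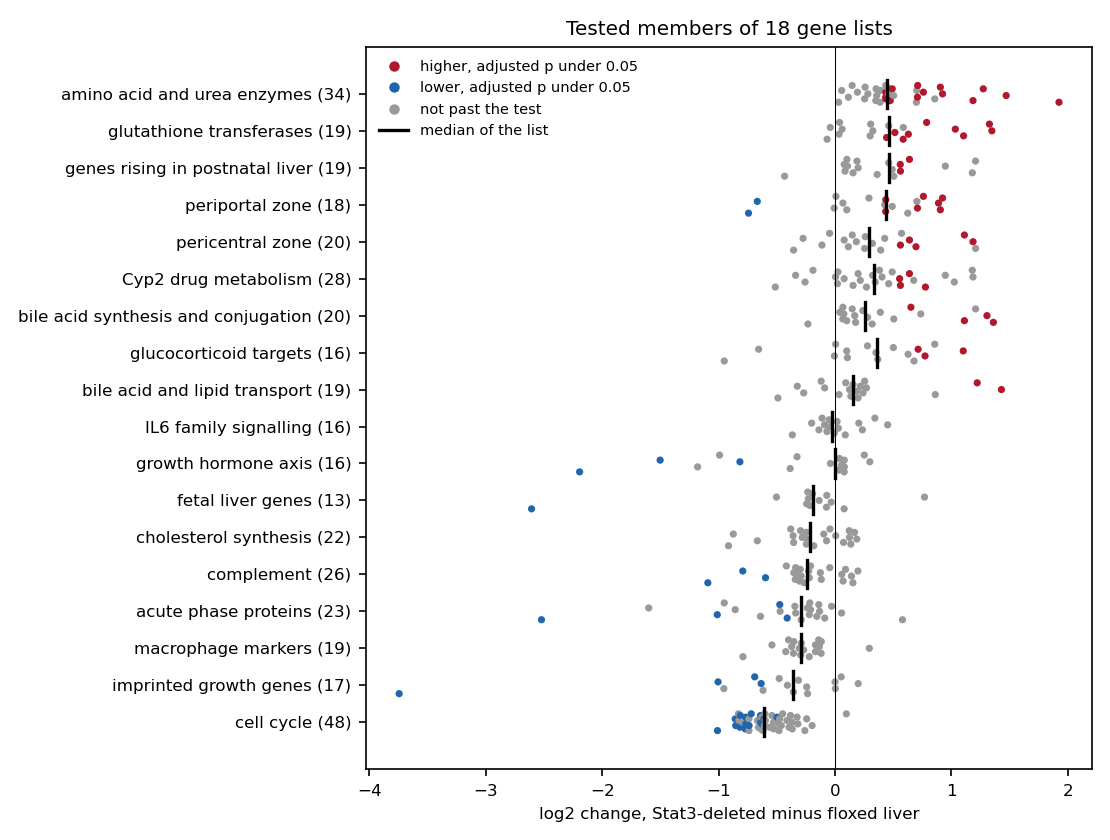
Each point is a tested gene, placed by its log2 change (x axis, Stat3Δhc minus Stat3Fl/Fl); rows are 18 gene lists with the number tested in brackets, and the black bar is the list's median. Red points rose and blue points fell at an adjusted p under 0.05. Medians run from 0.46 for glutathione transferases to -0.61 for cell cycle genes, with interleukin 6 signalling at -0.02.

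Genes of DNA replication and mitosis were lower in the deleted liver. Of 48 tested, 15 fell and 0 rose, 47 of the log2 changes were negative, and the median was -0.61. The mean over the 48 genes read 7.320, 6.934 and 7.334 in Stat3Δhc and 7.582, 7.802 and 7.936 in Stat3Fl/Fl. Floxed A was the lowest of the floxed arrays and deleted B the lowest of all. Without floxed A 21 genes fell, but without floxed B or without floxed C 0 did, and without deleted A, B or C the count was 3, 1 and 5. Nearly every gene had the same direction, while the number of calls depended on which arrays were present.

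Aurkb, a kinase of chromosome segregation, read 7.16, 6.93 and 7.36 in Stat3Δhc and 7.66, 8.01 and 8.09 in Stat3Fl/Fl and fell 1.71-fold (-0.77, SE 0.13, adjusted p = 0.0103; 0.0648 without floxed B and 0.0735 without floxed C). E2f8, a repressor of the cell cycle that is itself expressed in S phase, read 5.91, 5.79 and 6.39 against 6.88, 7.03 and 7.21 and fell 2.01-fold (-1.01, SE 0.19, adjusted p = 0.0184; 0.078 to 0.112 without deleted A or B or floxed B or C). Ccna2, cyclin A, read 7.92, 7.396 and 7.92 against 8.23, 8.76 and 8.68 and fell 1.76-fold (-0.81, SE 0.17, adjusted p = 0.0273). Mcm6, a subunit of the replicative helicase, Cdc6, which loads it, and Bub1b, a spindle checkpoint kinase, fell by 0.86, 0.85 and 0.82 on the log2 scale (adjusted p = 0.0444, 0.0467 and 0.0432). Ccna2, Mcm6 and Bub1b were called only with all arrays or without floxed A (otherwise 0.0511 to 0.216), and Cdc6 also without deleted C (otherwise 0.0694 to 0.221). Cdc6 moved from -0.85 to -0.55 without deleted B.

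Ccnd1, the cyclin that carries growth signals into the cycle, fell by 0.50 on the log2 scale (adjusted p = 0.0376; 0.0152 without floxed A, and not called without any other of the 6 arrays, at 0.0563 to 0.181). The proliferation marker Mki67 read 8.09, 7.61 and 8.21 in Stat3Δhc and 8.4, 8.80 and 8.92 in Stat3Fl/Fl (-0.74, SE 0.24, adjusted p = 0.124), and Top2a, which untangles replicated DNA, read 7.97, 7.36 and 7.98 against 8.21, 8.59 and 8.89 (-0.79, SE 0.23, adjusted p = 0.0856). In whole liver, fewer dividing cells and less RNA per dividing cell cannot be told apart, and neither can hepatocytes and other dividing cells such as blood cell precursors. Erythroid markers overlapped between the groups (mean over 10 genes 7.296, 7.154 and 7.211 against 7.191, 7.25 and 7.339).

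**Figure D4:**
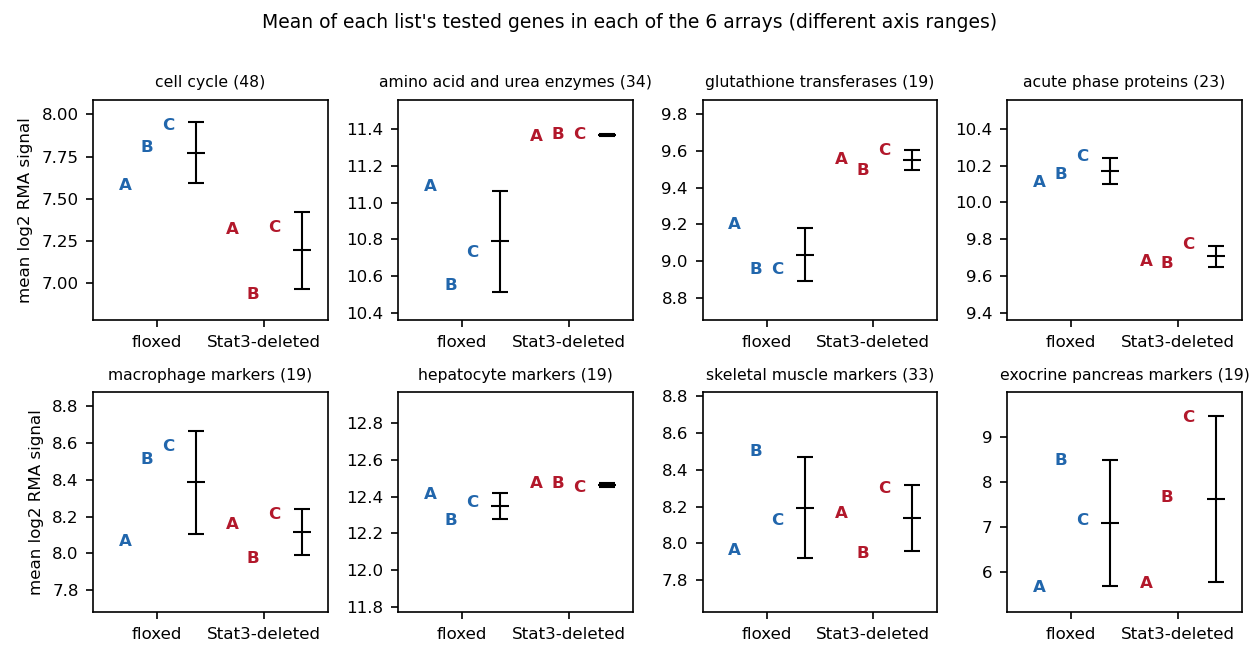
Each letter is an array and each panel a list (number of tested genes in brackets); the y axis is the mean log2 RMA signal, and the bar with whiskers is the mean with its SD over 3 arrays. Floxed A (blue A) lies toward the red letters for amino acid enzymes (11.09) and cell cycle genes (7.582), inside them for macrophage markers (8.062), and lowest for exocrine pancreas (5.677), which overlaps between the groups.

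Markers of the other liver cells were examined for a shift in composition. None of 19 macrophage, 8 lymphocyte, 10 neutrophil, 10 erythroid, 21 endothelial or 17 stellate cell genes passed the test (limma). At an unadjusted p under 0.05 there were 7, 6, 3, 5, 2 and 2 of them, against 2286 of all 13977 genes tested. Macrophage genes nevertheless had negative log2 changes in 18 of 19 (median -0.29), and their mean read 8.156, 7.973 and 8.213 in Stat3Δhc and 8.062, 8.512 and 8.582 in Stat3Fl/Fl. Floxed A lay among the deleted arrays, and without it 6 macrophage genes fell, among them the macrophage marker Adgre1 (8.22, 8.02 and 8.44 against 8.25, 8.68 and 8.87; log2 change -0.55 and adjusted p = 0.0334 without floxed A, -0.37 and 0.226 with it). Lymphocyte genes had negative log2 changes in 8 of 8 (median -0.33), and neutrophil genes in 9 of 10 (median -0.32). The endothelial median was 0.0028. The part of these cells in the other changes was not tested.

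Bile duct markers gave 1 call of 11. Prom1, a progenitor and duct surface protein, read 7.23, 6.84 and 7.43 in Stat3Δhc and 7.71, 8.52 and 8.51 in Stat3Fl/Fl and fell 2.11-fold (-1.08, SE 0.20, adjusted p = 0.016; 0.0575 to 0.102 without deleted A or B or floxed B or C). The keratin gene Krt19 and the duct transcription factor gene Sox9, which define the lineage, overlapped between the groups, Krt19 at 0.15 (adjusted p = 0.751) and Sox9 at 0.01 (adjusted p = 0.986) on the log2 scale. Of 30 matrix genes 3 fell: Col1a1 and Col1a2, the chains of type I collagen (1.457- and 1.374-fold, adjusted p = 0.0317 and 0.0316), and Fn1, fibronectin (1.27-fold, adjusted p = 0.0361). The list's median was -0.14. The 3 calls held only with all arrays or without floxed A, the adjusted p otherwise being 0.075 to 0.173.

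Among inflammatory lists, none of 22 interferon response, 18 chemokine and cytokine or 14 antigen presentation genes passed the test (limma; 6, 3 and 1 had an unadjusted p under 0.05), and their medians were -0.0077, -0.14 and -0.14. Without floxed A, 3, 4 and 0 of them fell. Among named genes outside these lists, Gbp11, a guanylate-binding protein gene, read 7.56, 7.66 and 7.19 in Stat3Δhc and 9.22, 9.69 and 9.27 in Stat3Fl/Fl (-1.93, SE 0.29, adjusted p = 0.00594). None of 14 genes of the EGF receptor list passed either (limma; 1 at an unadjusted p under 0.05), although Egfr, the receptor, read 8.70, 8.49 and 8.64 against 9.72, 9.41 and 9.16, with the deleted arrays below (-0.82, SE 0.21, adjusted p = 0.0593).

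Among 16 glucocorticoid targets 3 rose and 0 fell, with a median of 0.36. Zbtb16, a zinc finger gene induced by glucocorticoids, read 8.12, 7.85 and 7.22 in Stat3Δhc and 6.58, 6.95 and 6.35 in Stat3Fl/Fl and rose 2.15-fold (1.10, SE 0.23, adjusted p = 0.0249). Dusp1, a MAP kinase phosphatase, read 8.30, 8.73 and 8.72 against 7.97, 7.71 and 7.75 and rose 1.71-fold (adjusted p = 0.0184), and Tsc22d3 (GILZ) read 8.35, 8.53 and 8.59 against 8.04, 7.59 and 7.68 and rose 1.64-fold (adjusted p = 0.0206). Zbtb16 lost its call without deleted A or B or floxed C (0.0909 to 0.146), and the others without deleted B or C or floxed B or C (0.0747 to 0.117). Fkbp5, another target of the same receptor, went the other way in its values (8.56, 8.41 and 8.57 against 8.57, 9.59 and 9.34; -0.66, adjusted p = 0.155, and -0.95, adjusted p = 0.0102 without floxed A), so the members of the list were not of 1 direction.

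In the integrated stress response 2 of 21 genes fell: Psat1, an enzyme of serine synthesis (1.505-fold, adjusted p = 0.0172), and Mthfd2, a mitochondrial folate enzyme (1.31-fold, adjusted p = 0.0275). Both lost the call without deleted C or floxed B or C, and Psat1 also without deleted B and Mthfd2 without deleted A (0.0535 to 0.152). Dusp1 was the single call of 19 immediate early genes, and none of 17 circadian or 17 apoptosis genes passed the test (limma; 8 and 3 had an unadjusted p under 0.05).

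The same deletion was also measured on the Mdr2 knockout, in 6 other arrays. There Stat3 read 9.37, 9.27 and 9.54 in floxed and 8.12, 7.80 and 7.82 in deleted liver, as the titles have it; the source names of these 6 arrays give the reverse. Abcb4 was lower there than without the knockout, at 8.87 to 9.36, and was not at background. The sexes were not balanced there. Xist was high (11.27 to 11.34) in the 3 floxed arrays and in deleted A, and low in deleted B and C (4.51 and 4.79), so that deleted A is the single deleted array with the sex pattern of its controls. The values of these arrays below are therefore from mixed sexes, the arrays without the knockout are not, and the part of sex was not tested.

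On the knockout 806 genes were called (5.77 percent; 1.87 percent rose and 3.9 percent fell). The balance of rises and falls depended on the scaling, with 261 rises and 545 falls as deposited and 466 and 443 after cyclic loess. Without Mdr2-/- Stat3Δhc C it was 226 and 240. No array is shared between the comparisons, but they share the estimate of the spread. Of the 361 genes described here, 318 had the same direction on the knockout (88.09 percent, against 51.2 percent of all genes tested), and 134 were also called in that direction (37.12 percent, against 4.665 percent). The change on the knockout was the smaller in 297 of the 361, and in 9782 of all 13977 genes tested. A change in the opposite direction was counted as smaller, whatever its size. Over the 361 genes, the median share of the change without the knockout that was seen on it was 55.75 percent. These genes were chosen for passing the test in the first comparison, which by itself favours smaller values in the second.

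The growth hormone targets were among the genes called in both. Igfals had a log2 change of -1.502 without and -2.15 with the knockout, Igf1 of -0.82 and -1.27, and Socs2 of -2.19 and -1.64. Of the acute phase genes, Apcs had -1.01 and -1.26. The glutathione transferase Gstm1 had 1.11 and 0.36 (adjusted p = 0.16 on the knockout), and Cyp39a1 1.31 and 0.47 (adjusted p = 0.089). None of these 6 genes passed the test of the difference.

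**Figure D5:**
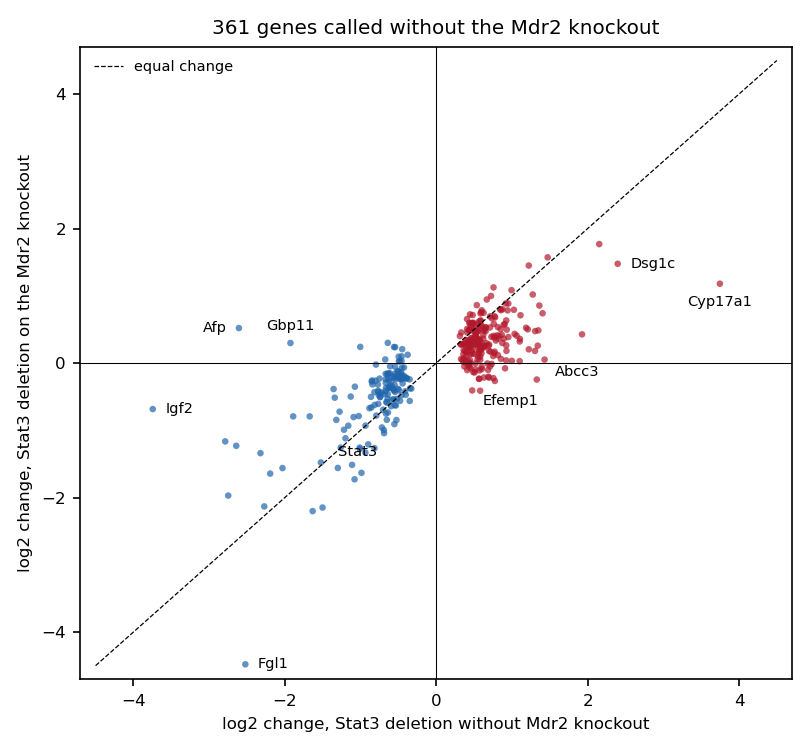
Each of the 361 genes called without the Mdr2 knockout is placed by its log2 change there (x axis) and by its log2 change for the same deletion on the knockout (y axis, 3 against 3 other arrays); red genes rose and blue genes fell on the x axis, and the dashed line marks equal change. Most points, 318, lie in the lower left or upper right part; Igf2 (-3.75 and -0.68) and Fgl1 (-2.52 and -4.48) lie far from the line on opposite sides.

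The difference between the Stat3 effects was tested gene by gene, and 10 of 13977 genes passed (0.0715 percent; 0.0143 percent with a positive and 0.0572 percent with a negative difference), of which 4 were also called without the knockout. Igf2 read 11.60, 11.54 and 10.75 in Mdr2-/- floxed liver and 10.84, 10.96 and 10.05 in Mdr2-/- Stat3Δhc liver (log2 change -0.68, adjusted p = 0.163). All 6 of these arrays lay above the deleted arrays without the knockout. The difference was 3.06 (SE 0.43, adjusted p = 0.038). Fgl1 read 11.24, 11.94 and 12.07 against 7.06, 7.46 and 7.28 on the knockout (-4.48, adjusted p = 2.64e-07). Its effects differed by -1.96 (SE 0.29, adjusted p = 0.038).

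Abcc3 read 8.63, 8.36 and 8.74 in Mdr2-/- floxed liver and 8.73, 8.32 and 8.83 in Mdr2-/- Stat3Δhc liver, and the groups overlapped (0.05, adjusted p = 0.845). Its difference was -1.38 (SE 0.22, adjusted p = 0.0387). Efemp1, an extracellular fibulin gene, was the single gene called in opposite directions. It read 7.33, 7.37 and 7.505 against 6.93, 6.96 and 6.90 without the knockout (0.47, SE 0.09, adjusted p = 0.0165), and 6.32, 6.30 and 6.41 in deleted against 6.73, 6.61 and 6.91 in floxed liver with it (-0.41, adjusted p = 0.0215). The difference was -0.88 (SE 0.13, adjusted p = 0.038).

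When 1 of the 12 arrays was left out, the called difference held in 6 of 12 fits for Igf2, 5 for Abcc3, 5 for Efemp1 and 4 for Fgl1. The adjusted p reached 0.111 for Igf2, Efemp1 and Fgl1 and 0.14 for Abcc3. All 4 were called without floxed A, and none was called without Stat3Δhc A or B, floxed B or C, or Mdr2-/- Stat3Δhc B. Over the 12 fits the difference ran from 2.79 to 3.34 for Igf2, -2.21 to -1.80 for Fgl1, -1.52 to -1.23 for Abcc3 and -0.95 to -0.80 for Efemp1. Afp (difference 3.13, adjusted p = 0.0715) and Cyp17a1 (difference -2.57, adjusted p = 0.0715) did not pass.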

How the data were processed

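Gene expression was measured on Affymetrix arrays hybridised with biotin-labelled total RNA from whole liver. The deposited values are log2 signals that the authors made with RMA, per the submitters' processing notes (version not stated); the genome build of the array is not given in the sources used here, and array depth cannot be stated beyond the number of arrays. Groups and replicate letters came from the sample titles. Of 35556 transcript clusters, 21789 had 1 gene symbol in GEO's platform annotation, 1621 had several and 12146 none, and only the first kind was used; for the 998 genes with more than 1 cluster the cluster with the highest mean was kept, which left 19938 genes, of which 19855 matched RefSeq.

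Genes above their array's 40th percentile in at least 3 of the 12 arrays (13977) were fitted with limma 3.58.1 (R 4.3.3; lmFit, eBayes) on all 12 arrays, so that the 4 groups share 1 estimate of the spread. P-values were adjusted by Benjamini-Hochberg over all 13977 genes, with a threshold of 0.05. The contrasts were Stat3 deletion without the knockout, on it, and their difference. The named genes are Stat3 and Abcb4, the 15 largest rises and 15 largest falls past the test whose arrays did not overlap (placeholder symbols left out), up to 6 called members of each of 52 gene lists (1088 genes, 901 tested), up to 4 members without a call by their role, and the genes also called in the test of the difference. Ccnd1, Gstm7 and Cdh1 fall outside this rule and were named after their values were seen. The members and lists were chosen with earlier results of these data known. On simulated data with 13977 genes, 82, 98, 100 and 100 percent of genes changed 1.5-, 2-, 3- and 4-fold were recovered for the comparison without the knockout, with 5 false calls. The simulated noise was independent between genes and arrays, with no shift of a single array such as that of floxed A. These rates therefore do not cover the dependence of the calls on single arrays. The alternatives tried were other filters, scalings, cluster rules, spread models, array weights, a replicate block and each array left out. Figures were drawn with matplotlib 3.10.9.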

Additional observations from a re-analysis of the deposited data

Results flagged for a closer look

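In 4 genes called without the Mdr2 knockout, the effect of Stat3 deletion differed between the backgrounds by the test of the difference itself (limma, 12 arrays, deletion on the knockout minus deletion without it). Igf2 differed by 3.06, Fgl1 by -1.958, Abcc3 by -1.38 and Efemp1 by -0.8822 on the log2 scale. The floxed and deleted arrays on the knockout were of unequal sex pattern, and the part of sex in these differences was not tested.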

How the results depend on the processing

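Without the knockout, 361 genes were called, and the count was within 1.5 times of this with no filter (259), a stricter filter (481), a filter over the 6 arrays (382), a fit of the 6 arrays alone (289), cyclic loess (445), median centring (309), mean clusters (363) and a trended robust spread (481). It was 2955 with array weights, 237 with the replicate block, and 69 to 753 with 1 of the arrays left out. The fit with array weights gave Stat3Δhc A a weight of 9.01, against 0.26 to 2.86 for the other arrays, so that 1 array dominated it. On the knockout, 806 genes became 2298 with array weights, 473 with the replicate block and 302 to 1475 with 1 array left out. The 10 called differences became 6 with no filter, 23 with the trended robust spread, 567 with array weights, 3 with the replicate block, and 0 to 64 with 1 array left out. The cause was not tested. The letters A, B and C were not taken as a pairing: the correlation of same-letter deviations between the 2 groups was 0.268, 0.073 and 0.366. No named called gene changed the sign of its log2 change under these alternatives. Medians of lists near 0 did change sign, as did that of exocrine pancreas markers, from 0.58 to -0.42 without deleted C and -0.23 without floxed A. Of 93 named called genes, 91 kept their call with cyclic loess, 85 with median centring, 75 with the replicate block, 68 in the fit of 6 arrays, 90 without floxed A, and 35 without floxed B or without floxed C. The calls lost in the fit of 6 arrays included those of Gpt, Prodh, Inhbb, Gnmt, Gstm6, Hal, Prom1, Ccna2, Col1a1 and Col1a2. The median log2 change over all genes was -0.0059, -0.0038 with cyclic loess and 0.016 with median centring.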

Other observations

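The 3 arrays a group limit the precision, with a median SE of 0.11 for a log2 change. The 6 arrays without the knockout shared a male sex pattern, and no array with a female pattern entered the log2 changes of that comparison. Arrays on the knockout, some with a female pattern, did enter its shared estimate of the spread and the filter on low values. A fit of the 6 arrays alone called 289 genes, of which 232 were among the 361. Exocrine pancreas RNA varied between arrays of both groups.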
